A study of Glycine max with 44 samples.

Results

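The expansin genes EXP1, EXP2 and EXP4 and the beta-tubulin gene TUBB3 were measured in soybean (Glycine max) root tips with and without aluminium (Al). The genes were taken by name: every soybean probe set whose only annotated gene symbol is EXP1, EXP2, EXP4 or TUBB3 was used, whatever its values. This gave 4 genes of 6029 with such an annotation, and 6 probe sets of the 37593 soybean probe sets on the array. EXP2 has 3 of them, called the first, the second and the third here, and EXP1, EXP4 and TUBB3 have 1 each. The second EXP2 probe set is of the kind marked _s_at, which can bind transcripts of more than 1 gene.

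Expansins are proteins of the plant cell wall that let cellulose and matrix polymers slip past each other, so that a wall under turgor can extend. They act without cutting the polymers. Beta-tubulin pairs with alpha-tubulin to build microtubules, which guide the laying down of cellulose in elongating cells and form the spindle and division plate in dividing cells. Root growth happens in the tip, and a halt of root elongation is the best known sign of Al toxicity in plants. The question asked here was whether transcripts of these growth genes were lower in root tips given Al.

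In NCBI's gene table for the soybean assembly Glycine_max_v4.0, EXP1 (gene 548040) lies on chromosome 17 from 41557906 to 41559692 and EXP2 (gene 547955) on chromosome 7 from 15543918 to 15548068. EXP4 (gene 100785757) lies on chromosome 2 from 10417321 to 10419166, and TUBB3 (gene 547844) on chromosome 3 from 34940293 to 34943229. The second and the third EXP2 probe sets were designed from the same sequence record. Which exon or strand each probe set targets was not checked.

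RNA came from tips of the tap root, 1 cm long, of PI416937, labelled Al-tolerant, and of Young, labelled Al-sensitive. Plants stood in hydroponic culture with 10 µM Al or with 0 µM Al, called untreated here. They were sampled after 2, 12, 48 or 72 h. All were kept in a daily cycle of light and dark, warmer in the light. The hour of day at sampling is not given, so sampling times may differ in it as well as in hours of culture. The 16 groups are PI416937 with Al, PI416937 untreated, Young with Al and Young untreated, each at the 4 times. Every group at 2 h has 2 arrays and every other group has 3, which makes 44 arrays. Nothing in the labels says whether the replicates were separate cultures, so p-values measure the spread between these arrays, which may be technical.

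Levels are given as log2(intensity + 16) of the deposited intensities, which understates changes of dim probe sets. Fold changes are likewise of intensity + 16, not of intensity. Background was 4.41, the level under which 95% of 23350 probe sets for other organisms on the array lay. The medians of the 35289 probe sets tested differed by at most 0.14 between arrays. Seed storage genes, on 11 probe sets, summed to an intensity of 53 to 62 in each array. The photosynthetic gene CAB3 and the nodule gene list were detected and varied between arrays, as did the ratio of 3′ to 5′ probe sets of control transcripts, a sign of RNA quality. Their values are given beside the results they moved with. Nodule genes are given as a summed intensity, which mostly reads 1 gene, NOD33. Its mean level over the arrays was 11.47, against 4.35 to 5.88 for the other probe sets of the list.

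Of the 6 probe sets, 5 were above background on all 44 arrays. TUBB3 spanned 12.58 to 13.95 over the arrays, the narrowest range among these 5. EXP1 spanned 8.28 to 12.23 and EXP4 4.73 to 9.88. The first and second EXP2 probe sets spanned 5.29 to 10.15 and 4.94 to 9.61. The third EXP2 probe set was above background on 11 arrays only, in 7 of the 16 group means, and passed the filter on low values through those groups. All 6 were tested.

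The spread between arrays of a group differed from gene to gene. The SD pooled over the 16 groups was 0.23 for TUBB3, 0.53 for each of the first and second EXP2 probe sets, 0.73 for EXP1 and 0.73 for EXP4. The EXP1 spread was largest in Young with Al at 12 h (SD 1.84, n = 3), and that of EXP4 in untreated PI416937 at 12 h (SD 1.82, n = 3). Differences in EXP1 and EXP4 were therefore measured with less precision than those in TUBB3.

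Within each probe set, the 16 group means formed a near-continuous order. TUBB3 was highest in untreated Young at 72 h (13.92 ± 0.05, SD, n = 3) and lowest in untreated Young at 2 h (12.74, n = 2). EXP1 was highest in untreated PI416937 at 48 h (11.85 ± 0.56, SD, n = 3) and lowest in Young with Al at 12 h (9.78 ± 1.84, SD, n = 3). EXP2 was highest in PI416937 with Al at 2 h and lowest in untreated PI416937 at 72 h in both bright probe sets, at 9.93 against 6.08 and at 9.43 against 5.89. EXP4 was highest in untreated PI416937 at 12 h (7.78) and lowest in Young with Al at 72 h (5.01). Of the 15 pairs of neighbours in each order, 15 for EXP1, 14 for TUBB3, 14 for each bright EXP2 probe set and 12 for EXP4 differed by less than the larger SD of the pair, so neighbouring groups mostly could not be ranked.

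**Figure D1:**
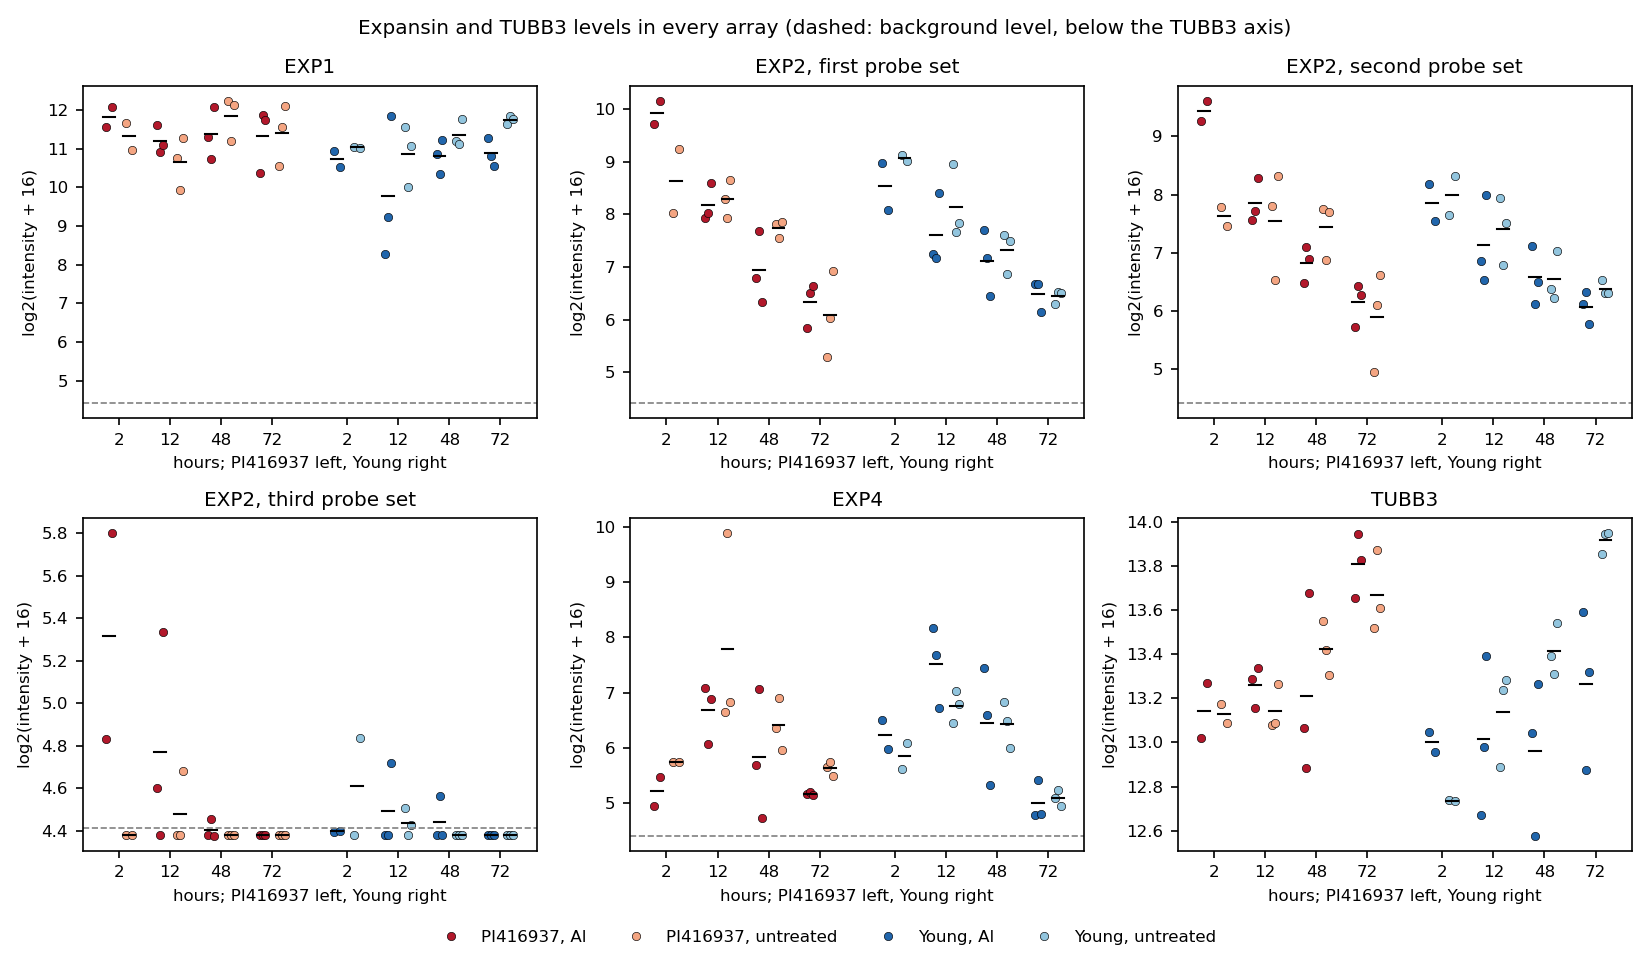
Level of each probe set, as log2(intensity + 16), in every array, by genotype, treatment and hours. Points are arrays, short black bars are group means, and the dashed line is the background of 4.41, which lies below the TUBB3 axis. Both bright EXP2 probe sets step down with time in either treatment and genotype, while TUBB3 is highest at 72 h.

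With Al, few differences in these genes passed the test, and they had no common direction. Treated minus untreated differences were fitted with limma in each genotype at each time, with Benjamini-Hochberg adjustment over all 35289 probe sets. A difference with an adjusted p under 0.05 is described as called. Of the 48 differences from 6 probe sets in 8 comparisons, 26 were below 0. Of the 48, 1 was called lower, TUBB3 in Young at 72 h, and 1 was called higher, the third EXP2 probe set in PI416937 at 2 h. At an unadjusted p under 0.05, 2 were lower and 3 higher, or 10.4% of the 48, against 9.95% of all tested probe sets over the same 8 comparisons. In a bulk sample, fewer cells of a type and less RNA per cell cannot be told apart.

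Among all tested probe sets, the share called in PI416937 was 1.01% at 2 h, 0.00283% at 12 h, 4.04% at 48 h and 0.0397% at 72 h. In Young the shares were 0.105%, 0.0822%, 2.77% and 3.7% at 2, 12, 48 and 72 h. In the direction of the 2 calls, 0.904% of all tested probe sets were higher in PI416937 at 2 h, and 0.7% were lower in Young at 72 h. Treated and untreated arrays did not overlap in 11 of the 48 differences, with Al higher in 4 and lower in 7. That is 22.9% of them, against 21.1% of all tested probe sets over the 8 comparisons (9.33% higher and 11.8% lower), so neither count sets these genes apart from the rest of the array. The median difference of the 6 probe sets was 0.71 in PI416937 at 2 h, against -0.0025 over all tested probe sets. It was -0.53 in PI416937 at 48 h and -0.20 in Young at 72 h, against -0.02 over all tested probe sets in both. In the other 5 comparisons it lay between -0.21 and 0.20.

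TUBB3 was lower with Al in the sensitive genotype at 72 h. The Al-treated Young arrays read 13.59, 12.88 and 13.32, against 13.85, 13.95 and 13.95 in untreated Young. Every treated array was below every untreated array. The difference was -0.65 ± 0.19 (limma SE; 95% interval -1.03 to -0.27), or 1.57-fold lower, with an adjusted p of 0.042. Over 9 other settings it stayed between -0.69 and -0.64, with adjusted p between 0.0265 and 0.0907; the highest came from fitting the compared groups alone. The call rested on nearly every array: it ended without untreated replicate 1, 2 or 3 (adjusted p = 0.0921, 0.132 and 0.131) and without treated replicate 2 (-0.46, adjusted p = 0.364) or 3 (adjusted p = 0.103).

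Array quality moved with the TUBB3 difference in Young at 72 h. The log2 ratio of 3′ to 5′ probe sets was 7.52 to 7.89 with Al and 8.10 to 8.18 untreated for actin, and 2.50 to 3.12 with Al and 3.63 to 3.87 untreated for cytochrome P450. For glutathione transferase it was 1.07 to 1.62 with Al and 1.88 to 2.01 untreated. These ranges do not overlap. The summed intensity of the nodule list, on 6 probe sets of 5 genes, was 2749 to 9163 with Al and 918 to 927 untreated, and that of CAB3, on 5 probe sets, was 317 to 425 with Al and 369 to 706 untreated. Their part in the TUBB3 result was not tested.

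At the earlier times TUBB3 did not pass the test in Young. At 48 h the treated arrays read 13.04, 12.58 and 13.26, against 13.39, 13.31 and 13.54 untreated. These do not overlap either, and the difference was -0.45 ± 0.19 (adjusted p = 0.238). At 12 h it was -0.12 ± 0.19 and at 2 h 0.27 ± 0.23, where both treated arrays (13.05 and 12.95) lay above both untreated ones (12.74 and 12.73). Over the 4 times the mean difference in Young was -0.24 ± 0.10 (adjusted p = 0.152). Without treated replicate 3 at 12 h it was -0.29 and was called (adjusted p = 0.0491).

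In the tolerant genotype TUBB3 stayed within 0.22 of the untreated level. At 72 h the PI416937 arrays read 13.65, 13.94 and 13.83 with Al, against 13.52, 13.87 and 13.61 untreated, a difference of 0.14 ± 0.19 (95% interval -0.24 to 0.52). At 48 h they read 13.06, 12.88 and 13.68 with Al, against 13.55, 13.42 and 13.31 untreated, a difference of -0.22 ± 0.19. At 2 and 12 h the differences were 0.01 ± 0.23 and 0.12 ± 0.19. The arrays overlapped at every time, and the mean of the 4 times was 0.01 ± 0.10 (95% interval -0.19 to 0.21).

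EXP1 was below the untreated level in Young at all 4 times, though no time passed the test. At 72 h the treated Young arrays read 11.27, 10.82 and 10.55, against 11.64, 11.85 and 11.76 untreated. All treated arrays were lower, by -0.87 ± 0.58 (adjusted p = 0.439). At 48 h the arrays read 10.87, 10.33 and 11.23 with Al, against 11.19, 11.13 and 11.77 untreated (-0.55 ± 0.58). At 2 h they read 10.93 and 10.52 with Al, against 11.04 and 11.03 untreated (-0.31 ± 0.71), again without overlap.

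The size of the EXP1 difference in Young at 12 h depended on which treated arrays were included. The treated arrays read 8.28, 9.22 and 11.84, against 11.56, 10.00 and 11.06 untreated. The first and second treated arrays were the lowest EXP1 readings of the series, and the third was above every untreated array at 12 h. The difference was -1.09 ± 0.58 (adjusted p = 0.68), and without treated replicate 3 it was -2.12 (adjusted p = 0.0182). Without treated replicate 1 it was -0.34. The same 3 treated arrays had nodule list sums of 12574, 2305 and 1089, and actin 3′ to 5′ log2 ratios of 6.72, 7.60 and 7.70, against sums of 7529, 3550 and 2356 and ratios of 7.57, 7.68 and 7.77 untreated. The part of these in the result was not tested.

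Averaged over the 4 times, EXP1 was -0.70 ± 0.31 in Young with Al (95% interval -1.33 to -0.08), which did not pass the test over all probe sets (adjusted p = 0.182). An exact two-sided permutation test, which exchanged treated and untreated arrays within each time over 48000 arrangements, gave p = 0.0255, or 0.176 after Benjamini-Hochberg adjustment over 12 such tests. The smallest p these arrangements can give is 4.17e-05. Without treated replicate 3 at 12 h the mean was -0.96 and was called (adjusted p = 0.00864). In PI416937 the EXP1 differences had no common sign, at 0.49 ± 0.71, 0.54 ± 0.58, -0.48 ± 0.58 and -0.08 ± 0.58 at 2, 12, 48 and 72 h, with a mean of 0.12 ± 0.31. Treated and untreated PI416937 arrays overlapped at each time, as at 72 h, where they read 10.36, 11.87 and 11.75 with Al, against 10.55, 11.56 and 12.10 untreated.

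EXP2 stood above the untreated level with Al in the tolerant genotype at 2 h on all 3 probe sets, of which only the dimmest was called. On the second probe set the treated arrays read 9.26 and 9.61, against 7.79 and 7.47 untreated, a difference of 1.80 ± 0.52 (adjusted p = 0.0931). On the first they read 9.71 and 10.15, against 8.02 and 9.24 untreated, a difference of 1.30 ± 0.52 (adjusted p = 0.328). On the third they read 4.83 and 5.80, against 4.38 and 4.38 untreated, below background. Treated and untreated arrays did not overlap on any of them.

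The called difference, on the third EXP2 probe set, was 0.93 ± 0.20 (adjusted p = 0.013). Taken from the background level it was at least 0.90. The SD between its treated arrays was 0.69 (n = 2). The SD pooled over the 16 groups was 0.21 and came largely from arrays near background. The adjusted p therefore does not measure the spread between the treated arrays. The same holds for other p-values of this probe set that use this group. The difference varied by 1.5 times or more between settings, from 0.37 with a pseudocount of 64 to 2.01 with a pseudocount of 1. It was 0.45 and not called without treated replicate 2 (adjusted p = 1), 1.42 without treated replicate 1, and not called without untreated replicate 2 (adjusted p = 0.0887) or with the compared groups fitted alone (adjusted p = 0.878). With a pseudocount of 64 the second probe set was called too (1.59, adjusted p = 0.0215, over 10 settings 0.0215 to 0.694).

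At 2 h in PI416937, the CAB3 and nodule sums differed between treated and untreated arrays as well. CAB3 on 5 probe sets summed to 1717 and 3514 in the treated arrays, against 1272 and 472 untreated. The nodule list summed to 14934 and 12471 with Al, against 3236 and 3527 untreated, a sum that mostly reads NOD33. Over the 4 tested probe sets of that list the median difference was -0.25, and 0 were called. The actin 3′ to 5′ log2 ratio was 7.48 and 7.75 with Al, against 7.73 and 7.82 untreated, and that of glutathione transferase was 0.33 and 0.85 with Al, against 0.58 and 1.39 untreated. For cytochrome P450 it was 2.05 and 2.12 with Al, against 2.21 and 3.04 untreated, without overlap. The part of these genes in the EXP2 result was not tested.

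At later times, and in Young, no EXP2 difference passed the test. In PI416937 at 48 h the first probe set read 6.79, 7.67 and 6.34 with Al, against 7.82, 7.56 and 7.86 untreated (-0.81 ± 0.42, adjusted p = 0.305), and the second read 6.47, 7.10 and 6.89, against 7.75, 6.89 and 7.70 untreated (-0.62 ± 0.43, adjusted p = 0.455). At 12 and 72 h in that genotype both probe sets were between -0.10 and 0.30. In Young at 2 h the first read 8.97 and 8.09 with Al, against 9.12 and 9.00 untreated (-0.53 ± 0.52), and the second 8.18 and 7.54, against 7.65 and 8.33 untreated (-0.13 ± 0.52). In Young the other differences of both probe sets lay between -0.54 and 0.05. EXP2 thus had its largest treated value and its largest treated difference together at the first sampling of PI416937.

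EXP4 was below the untreated level in PI416937 at all 4 times, and no time passed the test. At 72 h the treated arrays read 5.17, 5.20 and 5.15, against 5.66, 5.75 and 5.50 untreated, a difference of -0.46 ± 0.58 without overlap. At 2 h they read 4.95 and 5.48, against 5.74 and 5.75 untreated, also without overlap (-0.53 ± 0.71). At 12 h they read 7.08, 6.08 and 6.88, against 6.64, 9.88 and 6.83 untreated, so that 1 untreated array carried the difference of -1.10 ± 0.58 (adjusted p = 1). At 48 h the difference was -0.58 ± 0.58, with overlap.

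The mean of the 4 times for EXP4 in PI416937 was -0.67 ± 0.31 (95% interval -1.30 to -0.04, adjusted p = 0.333). The exact permutation test gave p = 0.0294, or 0.176 after adjustment over the 12 tests. In Young, EXP4 read 8.16, 7.69 and 6.72 with Al at 12 h, against 6.46, 7.04 and 6.80 untreated (0.76 ± 0.58). At 2, 48 and 72 h the Young differences were 0.38 ± 0.71, 0.01 ± 0.58 and -0.09 ± 0.58, and the mean was 0.27 ± 0.31. EXP1 and EXP4 therefore had opposite signs in the means of both genotypes, each short of the test.

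Over the means of the 4 times, no probe set of these genes was called in either genotype, against 0.147% of all tested probe sets in PI416937 and 7.26% in Young. At an unadjusted limma p under 0.05 there were 4 among the 12 values: EXP4 and the third EXP2 probe set in PI416937, and EXP1 and TUBB3 in Young. Of all tested probe sets, 14.1% in PI416937 and 20% in Young passed that unadjusted threshold. None of the 12 exact permutation tests passed after adjustment. Without treated PI416937 replicate 1 at 2 h, the third EXP2 probe set was called over the mean in PI416937 (0.43, adjusted p = 0.000772, against 0.31 and 0.194 with all arrays).

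**Figure D2:**
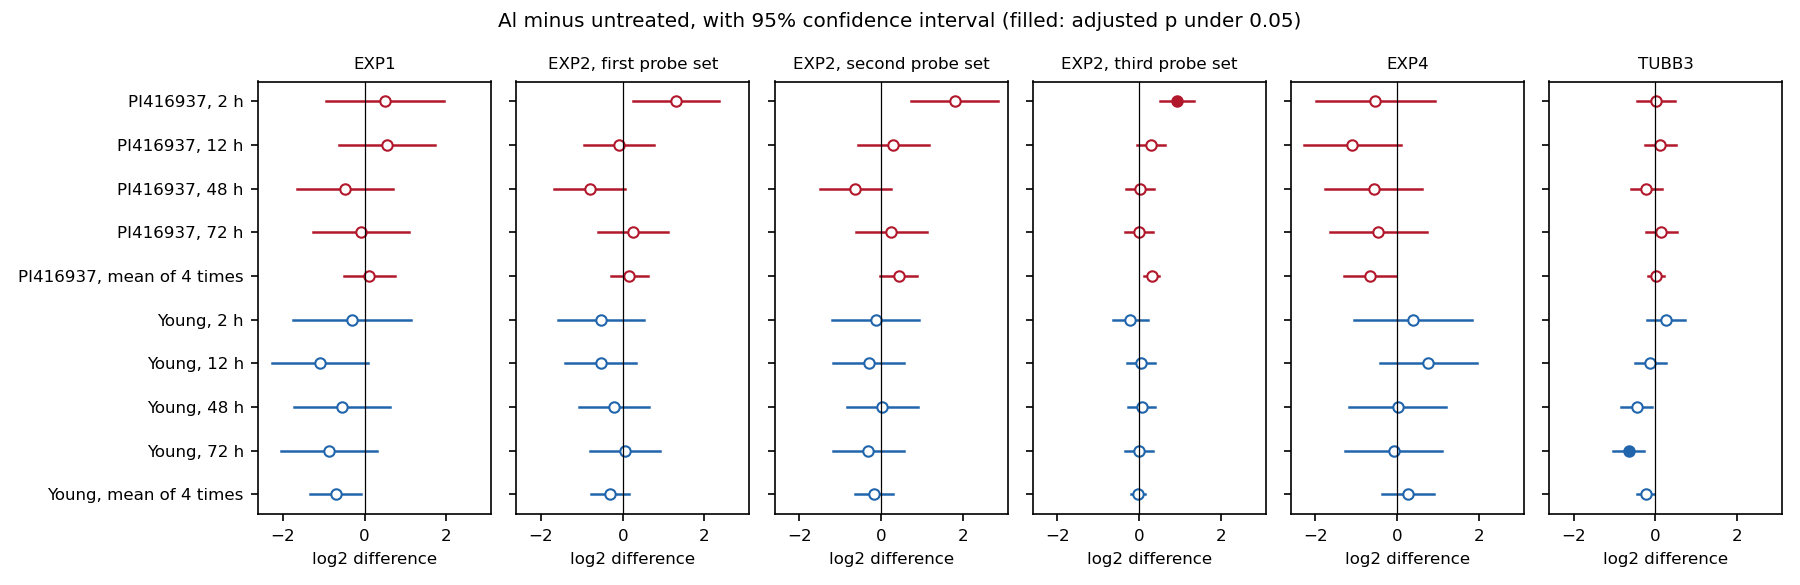
Difference of Al-treated from untreated root tips, on the log2 scale, for each probe set, in each genotype at each time, with the mean of all 4 times below. Circles are limma estimates, lines their 95% intervals, and filled circles have an adjusted p under 0.05. Only the third EXP2 probe set in PI416937 at 2 h and TUBB3 in Young at 72 h are filled, and most other intervals cross 0.

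Whether the 2 genotypes responded differently was tested as the response of PI416937 minus that of Young. None of the 6 probe sets was called at any time or over the mean, against 0.357% of all tested probe sets at 2 h, 0% at 12 h, 0.0113% at 48 h, 1.71% at 72 h and 0.21% over the mean. At an unadjusted limma p under 0.05 there were 7 among the 30 values, 5 above and 2 below 0, while 7.11% of all tested probe sets passed that threshold over the same 5 comparisons. For TUBB3 at 72 h the response of PI416937 exceeded that of Young by 0.80 ± 0.26 (95% interval 0.26 to 1.33, adjusted p = 0.122). It was called without treated Young replicate 1 at 72 h (0.96, adjusted p = 0.0436). The call of TUBB3 in Young at 72 h is thus not matched by a called difference from PI416937.

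For EXP2 at 2 h the responses differed by 1.83 ± 0.73 on the first probe set (adjusted p = 0.527), 1.93 ± 0.74 on the second (adjusted p = 0.477) and 1.14 ± 0.29 on the third (adjusted p = 0.0884). The third was called without treated PI416937 replicate 1 (1.63, adjusted p = 0.00012) or without untreated Young replicate 1 (1.37, adjusted p = 0.0339), and was 0.66 without treated PI416937 replicate 2. EXP1 responses differed by 0.83 ± 0.43 over the mean of the times, with PI416937 above Young (adjusted p = 0.59). EXP4 responses differed by -0.94 ± 0.44, with PI416937 below Young (adjusted p = 0.534).

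Without Al, the genotypes did not differ detectably in these genes. The mean difference over the 4 times, PI416937 minus Young, was 0.05 ± 0.31 for EXP1, -0.06 ± 0.22 and 0.05 ± 0.23 for the bright EXP2 probe sets, 0.36 ± 0.31 for EXP4 and 0.04 ± 0.10 for TUBB3. None of the 6 was called, nor under 0.05 without adjustment, against 4.84% of all tested probe sets called. The TUBB3 interval, -0.16 to 0.24, was the narrowest of these 5, and that of EXP4, -0.27 to 0.98, was wide.

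EXP2 and TUBB3 changed with sampling time, in opposite directions. In untreated root tips EXP2 fell by 2.59 ± 0.33 between 2 and 72 h on the first probe set (6.01-fold, adjusted p = 1.31e-06) and was -1.67 ± 0.34 on the second (3.18-fold lower, adjusted p = 0.00031), as the mean of both genotypes. At 72 h the first probe set read 5.29, 6.03 and 6.92 in untreated PI416937 and 6.30, 6.53 and 6.51 in untreated Young, against 8.02 and 9.24 and against 9.12 and 9.00 at 2 h. No untreated array at 72 h reached any untreated array at 2 h on either of these probe sets. TUBB3 rose by 0.86 ± 0.15 over the same span (1.81-fold, adjusted p = 4.95e-05). Its untreated arrays at 72 h, between 13.52 and 13.95, were all above those at 2 h, between 12.73 and 13.17.

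These changes came in steps. The first EXP2 probe set was -0.63 ± 0.33 at 12 h (adjusted p = 0.251) and -1.31 ± 0.33 at 48 h (adjusted p = 0.00543), relative to 2 h in untreated tips. The second was -0.32 ± 0.34 at 12 h and -0.81 ± 0.34 at 48 h (adjusted p = 0.0834; -0.95 and called with a replicate block, adjusted p = 0.0355). TUBB3 was 0.21 ± 0.15 at 12 h and 0.49 ± 0.15 at 48 h (adjusted p = 0.0175). EXP4 was higher at 12 h than at 2 h, by 1.47 ± 0.46 (adjusted p = 0.0408), and 0.62 ± 0.46 and -0.44 ± 0.46 from its 2 h level at 48 and 72 h. EXP1 was within 0.43 of its 2 h level at every later time, and no EXP1 change was called. The part of the hour of day in these changes, that of EXP4 at 12 h included, was not tested.

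Of the 6 probe sets, 1 was thus called at 12 h, 2 at 48 h and 3 at 72 h relative to 2 h in untreated tips. Among all tested probe sets the shares were 9.03%, 20.6% and 37.3%, so calls over time were common on the whole array. The 6 split into higher and lower as 1 and 0 at 12 h, 1 and 1 at 48 h, and 1 and 2 at 72 h, with every lower call on EXP2. Among all tested probe sets the higher and lower shares were 3.99% and 5.04% at 12 h, 10.7% and 9.95% at 48 h, and 20.3% and 17% at 72 h. Their median was -0.28 at 72 h, against 0.0088 over all tested probe sets.

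Al-treated tips were compared over time as well, in comparisons added after the levels had been seen. EXP2 fell at each later time: the differences from 2 h were -1.34 ± 0.33, -2.21 ± 0.33 and -2.82 ± 0.33 at 12, 48 and 72 h on the first probe set (adjusted p = 0.00844, 1.9e-05 and 3.1e-07). On the second they were -1.16 ± 0.34, -1.95 ± 0.34 and -2.54 ± 0.34 (adjusted p = 0.0231, 0.00011 and 1.74e-06). The third was called lower at 48 and 72 h (adjusted p = 0.0182 and 0.00589). Those calls came from PI416937. There the third probe set was at 5.31 at 2 h (SD 0.69, n = 2) and below background at 48 and 72 h. That is a difference of at least 0.90. In Young with Al it was not above background at 2 h (4.40) and stood at 4.44 at 48 h. The probe set passed the filter on low values and was highest in PI416937 with Al at 2 h. Its pooled spread came largely from arrays near background, so these calls are not support for a fall. EXP4 rose by 1.37 ± 0.46 at 12 h (adjusted p = 0.0484). TUBB3 rose by 0.46 ± 0.15 at 72 h (adjusted p = 0.0149) and stood at 0.07 ± 0.15 and 0.01 ± 0.15 at 12 and 48 h, as the mean of both genotypes. Its treated group means went from 13.14 at 2 h to 13.81 at 72 h in PI416937, and from 13.00 to 13.26 in Young. Called probe sets numbered 3, 3 and 4 of the 6 at 12, 48 and 72 h, against 11.6%, 21.1% and 33.5% of all tested probe sets. By direction, 1, 0 and 1 were higher, against 5.13%, 10.5% and 18.2% of all, and 2, 3 and 3 were lower, against 6.52%, 10.6% and 15.2% of all. Every lower call was on a probe set of EXP2, so these are repeated readings of 1 gene. The third EXP2 probe set is among them at 48 and 72 h. Whether the time course differed between treatments was not tested, nor was the part of the hour of day in it.

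The EXP2 changes at 72 h on the bright probe sets held whichever array was left out. Without any single array, both bright EXP2 probe sets were called at 72 h in untreated and in treated tips, and TUBB3 in untreated tips. The untreated 48 h calls ended without untreated PI416937 replicate 2 at 2 h (the first EXP2 probe set at -1.01, adjusted p = 0.0709; TUBB3 at 0.46, adjusted p = 0.0713), and for TUBB3 also without untreated Young replicate 1 at 2 h (adjusted p = 0.0643). The TUBB3 call in treated tips at 72 h ended without treated PI416937 replicate 1 or Young replicate 2 at 2 h (0.40 and 0.44, adjusted p = 0.0765 and 0.0517), or Young replicate 1 at 72 h (0.38, adjusted p = 0.0522). For the third EXP2 probe set the treated calls ended without treated PI416937 replicate 2 at 2 h (adjusted p = 0.343 at 48 h and 0.154 at 72 h), and at 48 h also without treated Young replicate 1 at 2 h (adjusted p = 0.0556).

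The 12 h calls were weaker. Without treated PI416937 replicate 2 or Young replicate 1 at 2 h, the EXP2 calls in treated tips at 12 h ended (first probe set adjusted p = 0.0549 and 0.0852; second 0.107 and 0.137), and for the second also without treated Young replicate 2 at 12 h (adjusted p = 0.0681). The EXP4 rise in untreated tips lay between 0.95 and 1.76 without single arrays and was called in 3 of 10 cases. It was lowest, at 0.95, without untreated PI416937 replicate 2 at 12 h, which read 9.88, and it also ended without either 2 h array of untreated PI416937 or Young, or without untreated Young replicate 2 or 3 at 12 h. In treated tips EXP4 was called in 2 of 10 such cases. EXP1 in treated tips was -0.77 ± 0.46 at 12 h and was called without treated Young replicate 3 at 12 h (-1.29, adjusted p = 0.0208).

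Array quality also changed over time. In untreated tips the glutathione transferase 3′ to 5′ log2 ratio lay between 1.88 and 2.18 at 72 h and between 0.17 and 1.39 at 2 h. In treated tips it lay between 1.07 and 2.59 at 72 h and between 0.26 and 0.91 at 2 h. Other controls separated the times less well. In untreated tips the 72 and 2 h ranges overlapped for actin (7.81 to 8.18 and 7.54 to 7.82) and for cytochrome P450 (3.33 to 3.92 and 2.09 to 3.57). In treated tips they overlapped for actin (7.52 to 8.33 and 7.41 to 7.75) but not for cytochrome P450 (2.50 to 4.51 and 2.03 to 2.33). The nodule list in untreated Young summed to 918 to 927 at 72 h, against 5285 to 10319 at 2 h, and in untreated PI416937 to 1016 to 3866 at 72 h, against 3236 to 3527 at 2 h. The part of these values in the EXP2 and TUBB3 time courses was not tested.

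**Figure D3:**
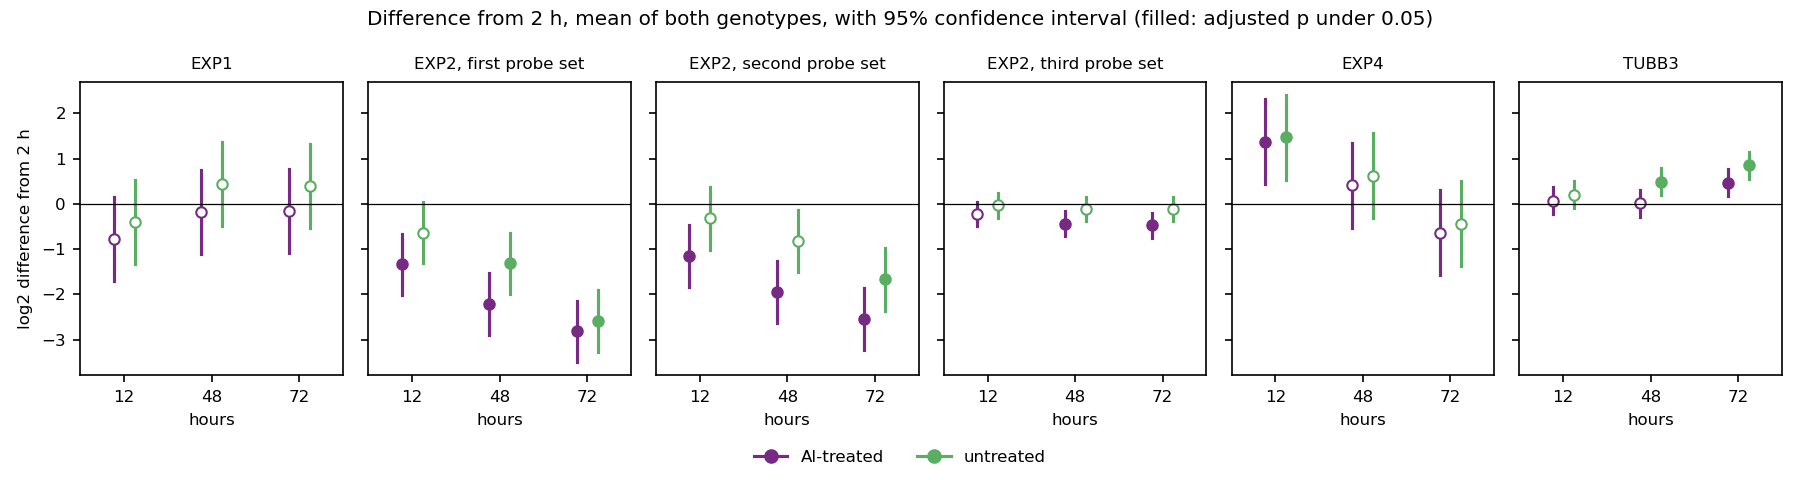
Difference from 2 h, on the log2 scale, of each probe set at 12, 48 and 72 h, as the mean of both genotypes, in Al-treated and in untreated root tips. Circles are limma estimates, lines their 95% intervals, and filled circles have an adjusted p under 0.05. EXP2 falls with time in both treatments (to -2.82 with Al and -2.59 untreated on the first probe set), and TUBB3 rises (to 0.46 with Al and 0.86 untreated).

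The 4 genes did not move as 1 unit. Over the 16 group means the first and second EXP2 probe sets had a Pearson correlation of 0.97, and over the 44 arrays 0.92, as 2 readings of 1 gene. EXP2 (first probe set) and TUBB3 had -0.67 over group means and -0.54 over arrays. EXP1 and TUBB3 had 0.54 and 0.56, EXP1 and EXP4 -0.63 and -0.56, and EXP1 and EXP2 -0.03 and 0.08. These points share arrays, sampling times and normalization, so the correlations describe these samples only.

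The expansin and tubulin lists hold 3 more genes besides the 4, and they are given here because they complete those lists. LOC100499976, annotated with the synonym expansin, was near background, between 4.36 and 5.71 over the arrays. None of its Al differences was called. At 2 h it averaged 4.83 with Al and 4.71 untreated in PI416937, and 5.12 with Al and 5.24 untreated in Young, and 10 of its 12 later group means were below background. It was called lower at 12, 48 and 72 h than at 2 h in treated tips (adjusted p = 0.00551, 0.00285 and 0.00168) and in untreated tips (adjusted p = 0.0389, 0.00358 and 0.00205). No size is given since most later levels are only bounded. The pooled spread behind these p-values came largely from arrays near background, while the 2 h groups (n = 2 each) had SDs of 0.23 to 0.68. The probe set passed the filter mainly through its 2 h groups, so these calls are not support for a fall. TUBB, another beta-tubulin, was -0.45 ± 0.17 with Al in Young at 48 h (adjusted p = 0.187) and -0.42 ± 0.17 at 72 h (adjusted p = 0.164). Its Young arrays at 72 h read 13.01 to 13.30 with Al, against 13.49 to 13.62 untreated, without overlap, and it rose by 0.34 ± 0.13 between 2 and 72 h in untreated tips (adjusted p = 0.0449). TUBB2, a further beta-tubulin, was -0.08 ± 0.28 in Young at 72 h, with 12.30 to 12.99 with Al, against 12.75 to 12.79 untreated. Of the 3 beta-tubulin probe sets, 1 was called lower with Al in Young at 72 h and none at any other time or in PI416937.

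Other genes tied to growth were compared with the same shares of the array. In all, 8 lists of expansins, tubulins, actin cytoskeleton, cell wall, aquaporin, auxin, gibberellin, and cell cycle and histone genes hold 84 probe sets of 47 genes, of which 82 were tested and 76 belong to other genes than the 4. Of those 76, 2 were called higher in PI416937 at 2 h, 1 was called lower in Young at 48 h, and 0 were called in the other 6 comparisons. The shares over all tested probe sets, 1.01% in PI416937 at 2 h, 2.77% in Young at 48 h and between 0.00283% and 4.04% in the others, would give few calls among 76 as well. Their median difference lay between -0.18 and 0.12 over the 8 comparisons. Both calls at 2 h were probe sets of an aquaporin gene, which codes for a water channel of cell membranes.

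The rule for naming list genes gave 2. PIP2-8, a plasma membrane aquaporin, read 7.20 to 9.17 with Al in PI416937 at 2 h. Untreated arrays there read 4.36 to 4.38, which is below background. The difference was at least 3.77 when taken from the background level (adjusted p = 1.62e-11). The SD between those treated arrays was 1.39 (n = 2), against a limma SE of 0.27. The mean level of this probe set over all arrays was 4.56, so the pooled spread came largely from arrays near background. The adjusted p therefore does not measure the spread between the treated arrays. SPCP1, annotated among the aquaporins of the vacuole membrane, was called on 1 of its 5 tested probe sets. There it averaged 14.11 ± 0.30 with Al in Young at 48 h and 14.68 ± 0.08 untreated (SD, n = 3 each). It was lower by -0.57 ± 0.14 (adjusted p = 0.0158).

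Over time, more of these 76 probe sets, 43 of them for aquaporins, were called lower than higher. At 72 h relative to 2 h, 3 were called higher and 25 lower in treated tips, and 11 higher and 25 lower in untreated tips. Over all tested probe sets 18.2% were higher and 15.2% lower in treated tips, and 20.3% higher and 17% lower in untreated tips. At 48 h the counts were 0 and 21 in treated tips, and 3 and 6 in untreated tips. Over all tested probe sets 10.5% were higher and 10.6% lower at 48 h in treated tips, and 10.7% higher and 9.95% lower in untreated tips. Aquaporins gave 18 of the 21 lower calls at 48 h in treated tips. At 72 h they gave 15 of the 25 lower calls in treated tips and 11 of the 25 in untreated tips. The aquaporin list holds 23 genes, so 1 gene can give several calls. The lists did not all go this way: of 5 gibberellin probe sets, 3 were called higher and 0 lower at 72 h in untreated tips.

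For each of the 4 genes, the genes with the most similar profile over the 16 group means were looked up among 5886 other genes, using its brightest probe set. EXP2 was closest to CGS2, a cystathionine gamma-synthase (Pearson correlation 0.97), then to NAC34, a NAC transcription factor, and AS2, an asparagine synthetase (0.94 each). Among genes with a locus number only, LOC100037476 was closest (0.95). All of them had their highest group mean at 2 h and their lowest at 72 h. In CGS2 the highest group was PI416937 with Al at 2 h (13.08) and the lowest untreated PI416937 at 72 h (11.27), the same groups as in EXP2.

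TUBB3 was closest to GT-2B, a trihelix transcription factor (0.97), CYP34 (0.95) and SMT2-2, a sterol methyltransferase (0.95), with LOC100802994 at 0.95. Each of these was lowest in untreated Young at 2 h, as TUBB3 was, and highest in PI416937 with Al at 72 h, which was the second highest TUBB3 group. Similarity was lower for EXP1, with GASA11, of the GASA family of small secreted peptides (0.84), LOC100500033 (0.83), ADR11 (0.80) and GF14B, a 14-3-3 protein (0.79). EXP4 was closest to LOC100306053 (0.92), HD2A, a plant-type histone deacetylase (0.88), IPT, an isopentenyltransferase of cytokinin synthesis (0.87), and CYP21 (0.86). All 16 means share the same arrays and normalization, so this is a description of shared profile.

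**Figure D4:**
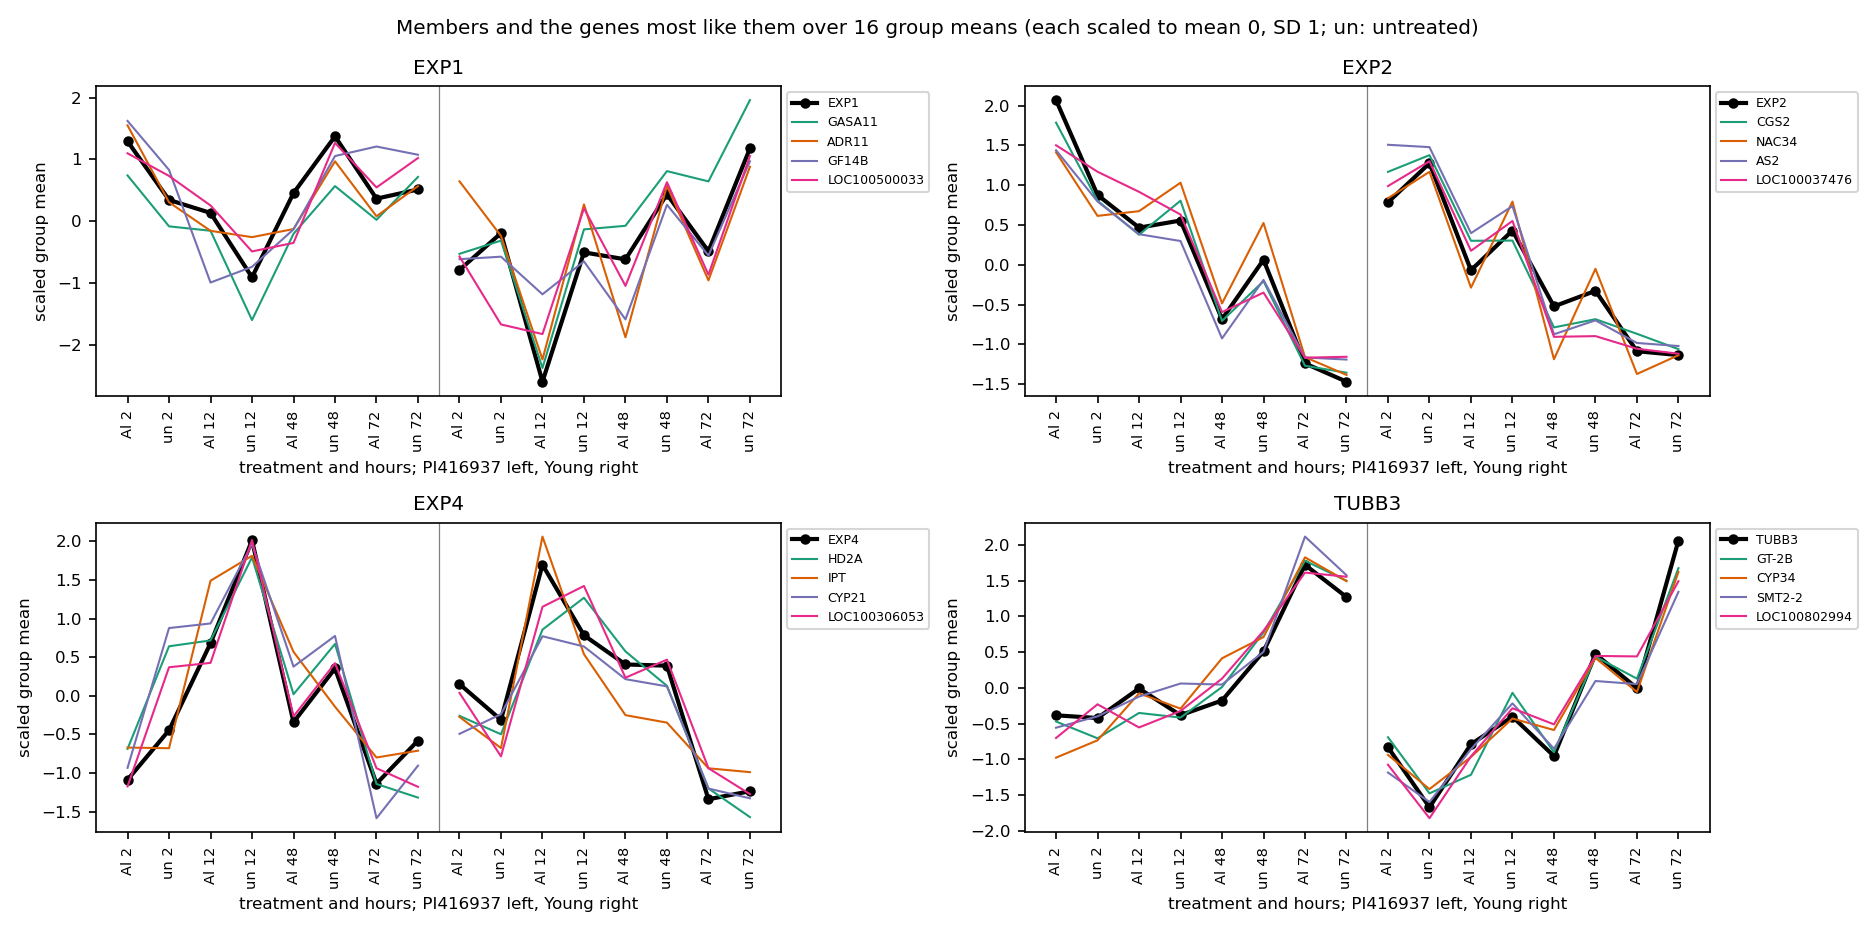
Group means of each gene (black) and of the genes most similar to it (colours) over the 16 groups, each scaled to mean 0 and SD 1, with Al and untreated (un) groups at 2, 12, 48 and 72 h and PI416937 left of Young. EXP2 and its closest genes are lower at 72 h than at 2 h, and TUBB3 and its closest genes higher, in each genotype and treatment. Steps between those times are not all in that direction, and TUBB3 has a lower point in Young with Al at 72 h than in untreated Young.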

How the data were processed

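The deposited table of the authors holds 1 intensity per probe set and array, on a linear scale from 3.22 to 75721. How the authors summarised and normalised the arrays is not given in the sources used here. Replicates are labelled samples, and no array pair was identical (highest correlation 0.998). Of 61170 probe sets, 227 controls and 23350 for other organisms were left out of the tests. Intensities were transformed to log2(intensity + 16) from the deposited values, with no further normalization, since array medians differed by under 0.2. A soybean probe set was tested when at least 1 of 16 group means was above background.

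All 44 arrays entered 1 fit of 16 group means (limma 3.58.1 under R 4.3.3: lmFit, contrasts, eBayes with trend; 28 residual and 1.94 prior degrees of freedom). Benjamini-Hochberg adjustment ran over all tested probe sets in each of 19 comparisons and in 3 added later. Values after ± are limma standard errors unless SD is given. Exact permutation tests and correlations used scipy 1.17.1. The fit was tested on simulated data.

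Every probe set of the 4 genes is named. From each growth list, up to 4 other genes with the smallest adjusted p were named if called with Al. For similar profiles, the 3 symbols with the highest correlation and the best locus number were named. The genes, lists and tests were chosen with earlier results of these data known. By the rule used, replicate numbers paired treated with untreated arrays only in Young at 12 h (residual correlations 0.24 to 0.29) and 48 h (0.38 to 0.48). In Young at 2 h the correlation was 0.35, but with 2 pairs it was not counted as paired. Promoter and protein sequences of these genes were not analysed here. Precision is limited by the few arrays in a group.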

Additional observations from a re-analysis of the deposited data

How the results depend on the processing

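Pseudocounts of 1 and 64, quantile normalization, centring on array medians, no filter, a stricter filter, no variance trend, the compared groups fitted alone, a replicate block and leaving out each array were tried. No called difference changed sign. With a pseudocount of 64, 2 probe sets were called in PI416937 at 2 h instead of 1, and 0 instead of 1 in untreated tips at 12 h. With the compared groups fitted alone, the calls were 0 instead of 1 in PI416937 at 2 h, 0 instead of 1 in Young at 72 h, 0 instead of 1 in untreated tips at 12 h and 0 instead of 3 in treated tips at 12 h, where fewer arrays estimate the spread; the cause was not tested further. Over all probe sets, that fit called 0 instead of 357 in PI416937 at 2 h, 246 instead of 1425 in PI416937 at 48 h, 463 instead of 979 in Young at 48 h and 3183 instead of 1306 in Young at 72 h. Over time it called 1111 instead of 3186 at 12 h and 4626 instead of 7282 at 48 h in untreated tips, and 552 instead of 4110 and 4235 instead of 7429 in treated tips. No other setting moved a count of calls among the 6 by over 1.5 times.

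Leaving out single arrays gave 0 to 1 calls of the 6 probe sets in PI416937 at 2 h, Young at 12 h, Young at 72 h, the PI416937 mean, the differences between responses at 2 h, 72 h and over the mean, and untreated tips at 12 h. It gave 0 to 2 in the Young mean and in untreated tips at 48 h, and 0 to 4 in treated tips at 12 h.

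The replicate block paired arrays by number in the comparisons of Al with untreated and of responses. In the other comparisons it fitted replicate number as a factor shared by all 16 groups, without pairing. The replicate block changed 1 call, the second EXP2 probe set in untreated tips at 48 h (-0.95, adjusted p = 0.0355). In Young at 72 h, where the numbers did not pair the arrays, it called 2480 probe sets in all instead of 1306, TUBB3 among them. In PI416937 at 2 h the same-numbered arrays deviated against each other (correlation -0.18), and a crossed pairing, chosen after seeing the data, called 369 probe sets and 1 of the 6. Near background, as for the third EXP2 probe set, the size of a difference is set by the pseudocount.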

Other observations

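Among growth genes other than expansins and tubulins, calls over sampling time are given beside the shares of all tested probe sets, and the genes named here were chosen after their values were seen. The aquaporin list holds 23 genes, several with more than 1 probe set, so its calls can include repeated readings of a gene. Of 43 aquaporin probe sets tested, 18 were called lower and 0 higher at 48 h relative to 2 h in treated tips. In untreated tips 3 were called lower and 0 higher. At 72 h the counts were 15 lower and 1 higher in treated tips, and 11 lower and 4 higher in untreated tips. Over all tested probe sets 10.6% were lower and 10.5% higher at 48 h in treated tips, and 9.95% lower and 10.7% higher in untreated tips. At 72 h the shares were 15.2% lower and 18.2% higher in treated tips, and 17% lower and 20.3% higher in untreated tips. The difference between these counts was not tested. Of 6 probe sets for the replication clamp PCNA and histone H4, 1 was called lower at 72 h in treated tips, near the share of all tested probe sets, with a median of -0.67. In untreated tips 5 were called lower, with a median of -0.98.

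Of 3 auxin probe sets, 0 were called higher and 1 lower at 72 h relative to 2 h in treated tips (median -0.43). In untreated tips 1 was called higher and 1 lower (median 0.02). The shares of all tested probe sets at 72 h are given above. The auxin-regulated gene AUX22 fell by 2.32 in treated tips (adjusted p = 0.00012) and by 1.77 in untreated tips (adjusted p = 0.0018) between 2 and 72 h. PRP2, a proline-rich cell wall protein, was lower on its _s_at probe set by -2.82 in treated tips (adjusted p = 0.00029) and by -3.08 in untreated tips (adjusted p = 0.0001) over the same time. XTH1, of the enzymes that cut and rejoin xyloglucan, stood 0.34 above its 2 h level at 72 h in treated tips (adjusted p = 0.11) and rose by 0.70 in untreated tips (adjusted p = 0.001). Of 5 gibberellin probe sets, 1 was called higher at 72 h in treated tips, near the share of all tested probe sets (18.2%). In untreated tips 3 were called higher (20.3% of all). Among these was a probe set of GAI2, a repressor of gibberellin signalling (0.68 in treated tips, adjusted p = 0.12, and 1.55 in untreated tips, adjusted p = 0.00065). GAI2 has another tested probe set, whose values are not given here.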
